A study of Mus musculus with 12 samples.

Results

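The transcripts of 10 genes of the hypoxia-inducible factor (HIF) pathway were followed in whole mouse lungs before and after birth. The genes were *Hif1a*, *Epas1*, *Hif3a*, *Arnt*, *Egln1*, *Egln2*, *Egln3*, *Vhl*, *Hif1an* and *Bnip3*. They were chosen by symbol, and all 10 were found among the 16152 genes of the count table. Bulk lungs of wild-type C57BL/6 mice of either sex had been sequenced at E15.5 and E18.5, before birth, and at P5 and P8, after birth, with 3 libraries per time-point and no treatment or genetic change in any group. Each library held 41337443 to 53901957 counted reads. Per the study's methods, the replicates of a time-point were littermates, so litter and time-point cannot be told apart. The p-values of single genes therefore measure only the spread within litters.

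HIF is a transcription factor made of an oxygen-sensitive alpha subunit and a stable beta subunit. In well-oxygenated cells, prolyl hydroxylases mark the alpha subunit, the VHL protein binds the marked form, and the alpha subunit is degraded. When oxygen is low the alpha subunit escapes, pairs with the beta subunit at short DNA elements and switches on genes of glycolysis, vessel growth and iron handling. The fetal lung develops at low oxygen tension and meets air at birth. In the lung, the alpha subunit encoded by *Epas1* is known for its place in endothelial and alveolar type 2 cells. The transcript levels given here do not measure the alpha proteins, which are controlled mainly by degradation.

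The 10 genes lie at separate places in the GRCm38 (mm10) genome. The alpha subunit genes are at chr12:73901375-73947530 (*Hif1a*, plus strand), chr17:86753700-86833410 (*Epas1*, plus) and chr7:17031507-17062427 (*Hif3a*, minus), and the beta subunit gene *Arnt* is at chr3:95434388-95497240 (plus). The hydroxylase genes are at chr8:124908587-124949324 (*Egln1*, minus), chr7:27158658-27166802 (*Egln2*, minus), chr12:54178981-54203860 (*Egln3*, minus) and chr19:44562850-44576274 (*Hif1an*, plus). *Vhl* is at chr6:113623959-113631633 (plus) and *Bnip3* at chr7:138890836-138909519 (minus). The exons of *Bnip3* share 504 of 2265 bases with the antisense gene Gm45507, and those of *Hif1a* share 330 of 5896 bases with the antisense gene Gm15283. Those of *Egln2* share 11 of 2800 bases with *Cyp2t4* on the opposite strand. Whether counting used strand is not given in the sources used here, so reads of these stretches cannot be assigned to a strand. *Hif1a* also shares 148 bases with the protein-coding gene Gm49321 on the same strand, where strand would not separate the reads.

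Some of the pathway's own genes carry the core of the HIF-binding element, ACGTG or GCGTG, in their promoters. Both forms were searched on both strands from 250 bases before to 50 bases after each RefSeq start site, and 9 of the 10 genes matched an entry of the RefSeq promoter table (GRCm38.p6); *Epas1* did not. ACGTG lay in the promoters of *Hif1a* (3 matches), *Egln1* (1), *Egln2* (3, in 1 of its 2 promoters), *Egln3* (1) and *Bnip3* (2), and in 19.6% of all 32851 promoters of the table. In *Hif1a*, *Egln2* and *Bnip3*, matches on opposite strands overlapped. GCGTG lay in the promoters of *Hif3a* (2 matches), *Arnt* (1), *Egln1* (1), *Egln2* (1 and 3 in its 2 promoters) and *Bnip3* (3), and in 32.4% of all promoters, and no match of it overlapped with an ACGTG. Either form was found in 7 of the 9 genes, with *Egln2* counted once for its 2 promoters, and in 43.8% of all promoters. The first is a count of genes and the second a share of promoters. Neither was found in the windows of *Vhl* and *Hif1an*. A match is a description of the letters and not a measurement of binding. Of the genes described below, *Vegfa* (1 match, in 1 of its 2 promoters) and *Cited2* (2), both higher after birth, held ACGTG as well. Among the few genes looked up, ACGTG thus lay in some that were higher and some that were lower after birth. Most genes of the target list were not looked up, and a link between the motif and the direction of change was not tested. The stretches of 4 genes with their highest mean at E18.5, *Egln1*, *Egln3*, *Bnip3* and the glucose transporter gene *Slc2a1*, are given as examples. *Hif1a* also had its highest mean at E18.5 and is not shown. They are written 5′ to 3′ on the gene's strand, with the ACGTG in capitals.
Egln1, chr8:124949308-124949332, minus strand: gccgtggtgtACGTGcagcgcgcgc
Egln3, chr12:54204089-54204113, minus strand: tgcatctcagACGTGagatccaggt
Bnip3, chr7:138909599-138909623, minus strand: cacgcgccgcACGTGccacacgctc
Slc2a1, chr4:119108699-119108723, plus strand: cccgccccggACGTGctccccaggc

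Lung epithelial markers (*Nkx2-1*, *Epcam*, *Cdh1*) were present in every library, with summed levels of 372 to 686 CPM (reads of a gene per 1000000 mapped reads). Some libraries stood apart. E15.5 replicates 1 and 2 held 933 and 1169.9 CPM of 5 heart muscle genes, against 51.3 to 313 CPM in the others, and P8 replicates 1 and 2 held 186 and 353 CPM of 8 thymocyte genes, against 4.45 to 32.3 CPM in the others. In E18.5 replicate 1, 32 of 48 known HIF target genes (66.7%) had their highest value of that time-point, whereas 30.2% of all genes tested did. In E15.5 replicate 2, 32 of 48 targets had their highest value of that time-point, against 41.7% of all genes tested. These counts were chosen after the values were seen.

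Differences between time-points were tested with edgeR over all 15994 genes that reached 1 CPM in 3 or more libraries, and all 10 genes passed this filter. FDR is the p-value of its quasi-likelihood test adjusted over all genes tested by the Benjamini-Hochberg method, a gene is said to rise or fall where the FDR was under 0.05, and called means a change of more than 1 on the log2 scale as well. Over the 4 time-points, 9 of the 10 genes changed, where 84.8% of all genes tested did, so this count is near the background. The sizes of the changes, and their directions, differed widely among the 10.

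**Figure D1:**
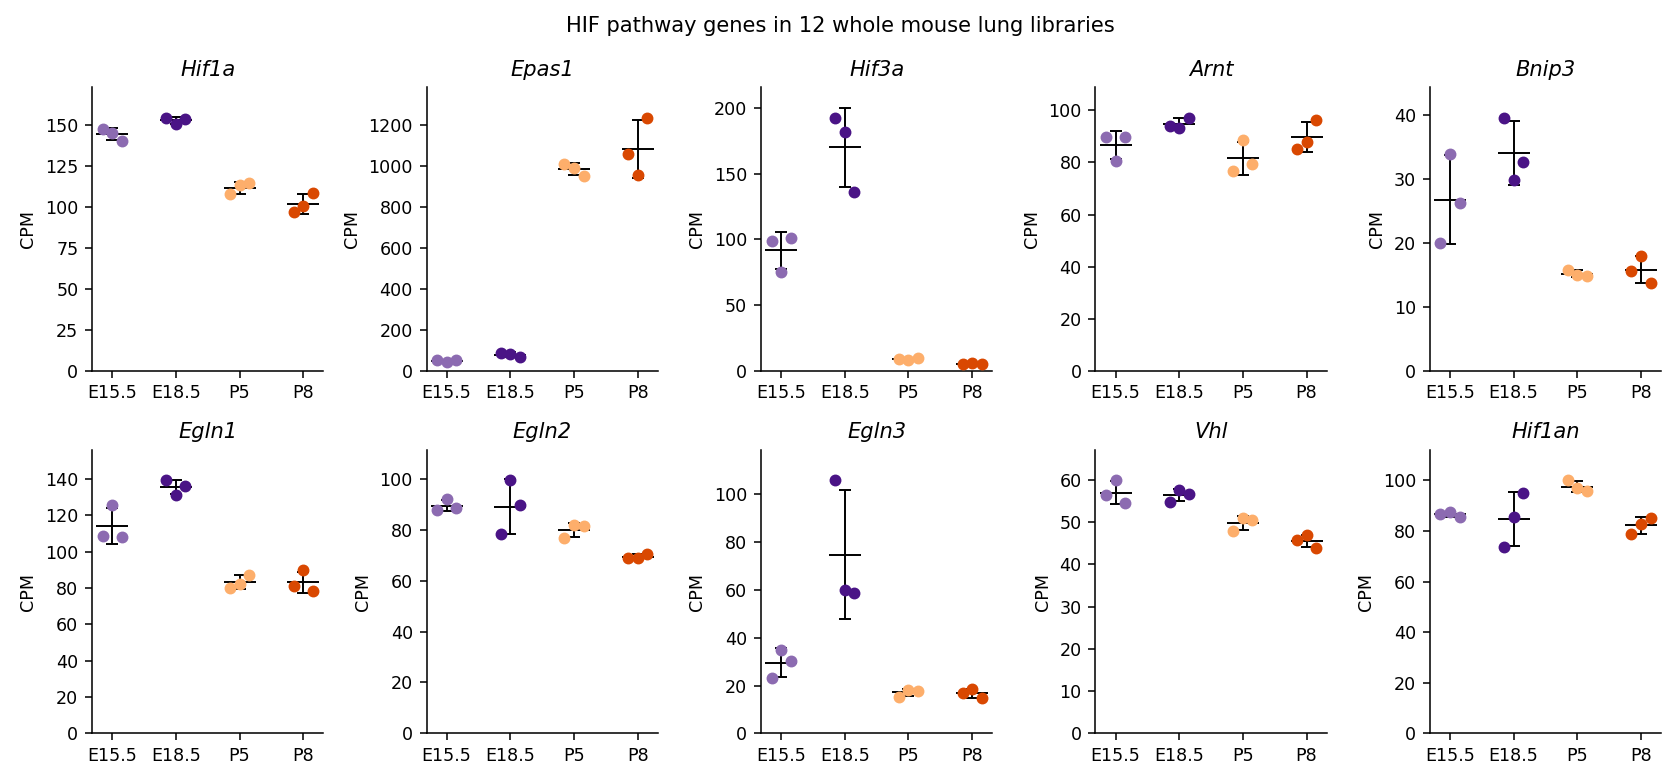
Level of each HIF pathway gene in CPM (vertical axis, starting at 0) at the 4 time-points. Points are libraries, the horizontal bar is the mean and the error bar the SD of 3 libraries. *Epas1* sat between 41.3 and 85.5 CPM before birth and between 951 and 1235 CPM after it, while *Hif3a* went from 75.3 to 193 CPM down to 4.97 to 9.78 CPM.

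*Epas1*, which encodes the alpha subunit of HIF2, showed the largest rise of the 10 genes across birth. It stood at 49.7, 41.3 and 50.4 CPM in the E15.5 libraries and at 85.5, 83.7 and 64.9 CPM at E18.5. At P5 it reached 1010.5, 991 and 951 CPM, and at P8 1059.7, 957 and 1235 CPM. The embryonic and postnatal libraries were far apart, and P5 and P8 overlapped. From E18.5 to P5 it rose 13.4-fold (log2 fold change 3.74 ± 0.14 SE, n = 3 per group, FDR = 1e-09 by edgeR). It had already risen 1.66-fold from E15.5 to E18.5 (log2 fold change 0.73 ± 0.13, FDR = 0.0027), but without the 2 E15.5 libraries with heart genes, which leaves 1 library there, the FDR was 0.076 and the log2 fold change 0.62. From P5 to P8 its log2 fold change was 0.12 ± 0.12 (FDR = 0.53).

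*Hif3a* encodes an alpha subunit with splice forms that restrain the other alpha subunits. Like *Epas1* it was higher at E18.5 than at E15.5, but it was far lower after birth. It stood at 98.9, 75.3 and 100.6 CPM at E15.5 and at 193, 181 and 136 CPM at E18.5. At P5 it was down to 8.86, 8.07 and 9.78 CPM, and at P8 to 4.97, 5.57 and 5.39 CPM. No library of 1 time-point overlapped with those of another. *Hif3a* rose 1.86-fold from E15.5 to E18.5 (log2 fold change 0.90 ± 0.14, FDR = 0.0017), fell 17.9-fold from E18.5 to P5 (log2 fold change -4.17 ± 0.16, FDR = 1.2e-09) and fell a further 1.70-fold to P8 (log2 fold change -0.77 ± 0.15, FDR = 0.0072). Without the 3 libraries with the most thymus genes, which leaves 1 library at P8, the last step was of like size (log2 fold change -0.75) with an FDR of 0.076. Without E18.5 replicate 3, the lowest of its time-point, the rise to E18.5 was 1.04 on the log2 scale and was then called.

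*Hif1a*, the alpha subunit gene found in nearly all cell types, changed far less. It held 148, 145 and 140.3 CPM at E15.5, 155, 151 and 154 CPM at E18.5, then 108, 113 and 115 CPM at P5, and 96.7, 100.8 and 108 CPM at P8. All embryonic libraries lay above all postnatal ones. It fell 1.29-fold from E18.5 to P5 (log2 fold change -0.37 ± 0.05, FDR = 1.6e-05). Its log2 fold change from P5 to P8 was -0.15 ± 0.05 with an FDR of 0.042, which passed 0.05 in only 8 of 22 alternative fits.

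The balance among the alpha subunit genes therefore changed between the embryonic and the postnatal lung. The ratio of *Epas1* to *Hif1a* counts was 0.284 to 0.360 in the E15.5 libraries and 0.422 to 0.555 in those of E18.5, but 8.29 to 9.38 in the P5 libraries and 9.49 to 11.4 in those of P8. The mean log2 ratio was 4.57 higher in the 6 postnatal than in the 6 embryonic libraries, a 23.8-fold shift (exact two-sided permutation test, p = 0.0022, the smallest that the splits of 6 against 6 allow, and adjusted p = 0.0032 over 3 ratios). Each side pooled the litters of different time-points, and the test took its 6 libraries as independent. This p-value, and those of the other ratios below, are therefore descriptive. To compare levels between genes, CPM were divided by the exon length in kb. On this scale *Hif1a* made up 52.7% ± 3.76 (SD, n = 3) of the summed alpha subunit transcripts at E15.5 and 40.1% ± 4.31 at E18.5, but after birth it made up 9.67% ± 0.532 (P5) and 8.21% ± 0.734 (P8). *Epas1* made up 18.1% ± 0.915 and 21.3% ± 1.14 before birth, and 89.6% ± 0.583 and 91.4% ± 0.789 after it. *Hif3a* took 29.2% ± 2.85 and 38.6% ± 3.21 of the embryonic sum and 0.677% ± 0.0787 and 0.377% ± 0.0549 of the postnatal sum. The sum itself was 46.6 ± 2.93 and 65.2 ± 6.45 CPM per kb at the embryonic time-points and 196 ± 4.81 and 212 ± 26 CPM per kb at the postnatal ones.

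**Figure D2:**
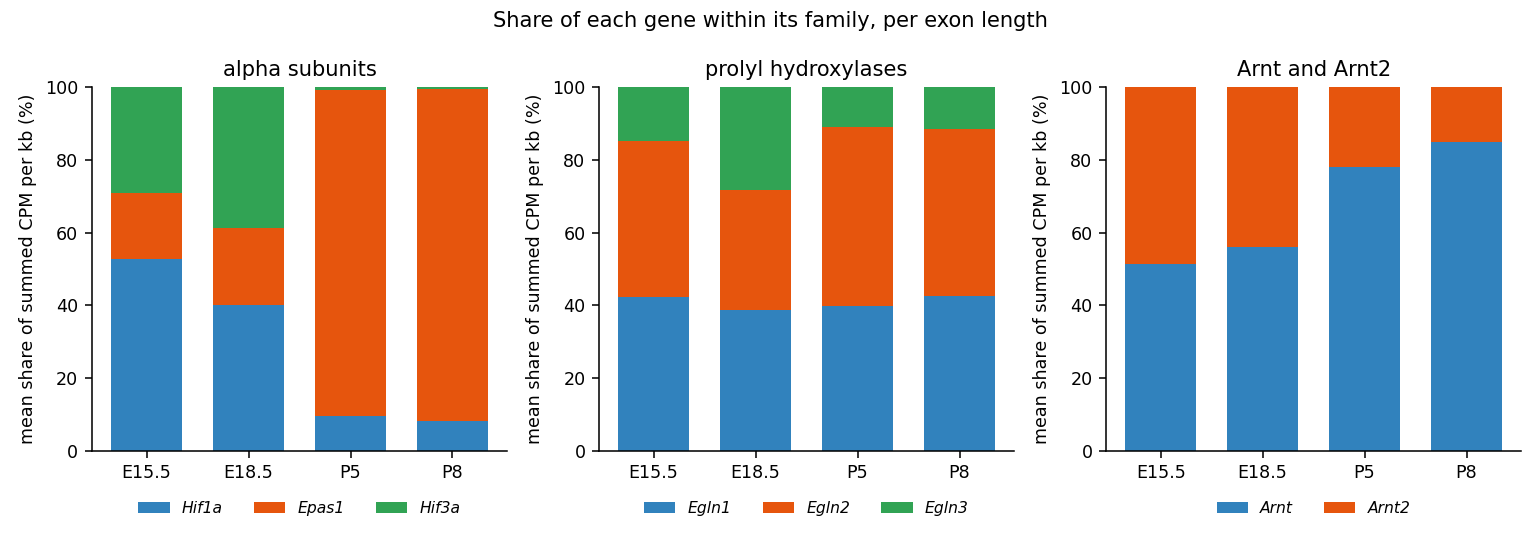
Mean share of each gene (vertical axis, percent of the family's summed CPM per kb of exon, 3 libraries per bar) among the alpha subunit genes, the prolyl hydroxylase genes and the beta subunit genes *Arnt* and *Arnt2* at the 4 time-points. *Epas1* goes from 21.3% of the alpha subunit sum at E18.5 to 89.6% at P5, *Egln3* reaches 28.4% of the hydroxylase sum at E18.5, and *Arnt2* shrinks from 48.5% at E15.5 to 15.1% at P8.

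Markers of several cell types moved across the same interval. In bulk lung, fewer cells of a type and less RNA per cell cannot be told apart. From E18.5 to P5, where 35.4% of all genes tested rose and 35.7% fell, all 8 endothelial markers rose (median log2 fold change 1.16), and their summed level went from 1245 to 1349 CPM at E18.5 up to 2775 to 2911 CPM at P5. All 6 alveolar type 2 markers rose (median 3.74), from a summed 1412 to 2349 CPM to 16019 to 18613 CPM. All 6 alveolar type 1 markers rose (median 2.70), from 596 to 716 CPM to 2301 to 2429 CPM, and all 4 leukocyte markers rose (median 3.20), from 74.7 to 84.8 CPM to 2061 to 2648 CPM. The general lung epithelial markers went the other way, with 0 of 3 rising and 2 falling (median -0.54). Their sum went from 595 to 686 CPM down to 372 to 402 CPM. Mesenchymal markers changed less, with 3 of 6 rising and summed levels of 3779 to 3975 CPM at E18.5 against 3876 to 4321 CPM at P5. Erythroid genes went from a summed 4057 to 4775 CPM to 11991 to 19666 CPM, with 7 of 8 rising, and all 6 cell cycle genes fell, from 1594 to 1639 CPM to 590.4 to 621 CPM. None of the markers of these lists was at 0 across a time-point. The part of these shifts in the changes of *Epas1* and *Hif3a* was not tested.

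**Figure D3:**
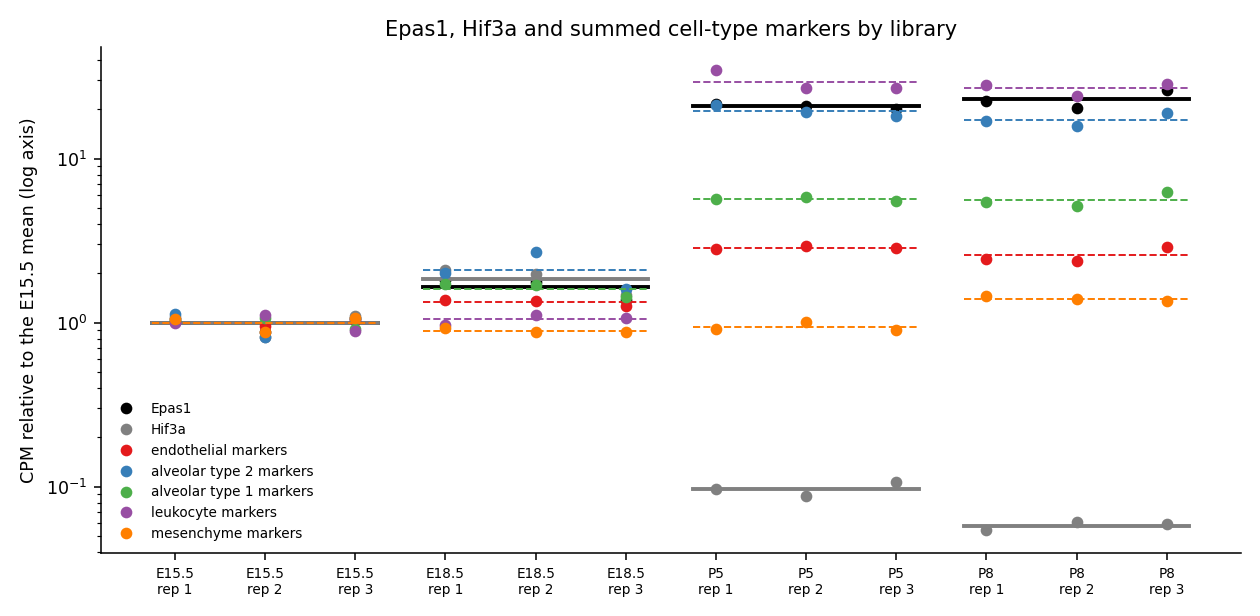
*Epas1*, *Hif3a* and the summed CPM of 5 marker lists in each of the 12 libraries, each divided by its own E15.5 mean (vertical log axis), with a point for each library and a horizontal line at each time-point's mean. *Epas1* and the alveolar type 2 and leukocyte sums lie far above their E15.5 level in all 6 postnatal libraries, the endothelial sum lies less far above it, and *Hif3a* lies below its own.

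The beta subunit gene *Arnt* was the steadiest of the 10. It held 89.8, 80.5 and 90.0 CPM at E15.5, 94.0, 93.3 and 97.2 CPM at E18.5, then 76.7, 88.5 and 79.4 CPM at P5, and 85.0, 87.8 and 96.3 CPM at P8. Its embryonic and postnatal libraries overlapped. *Arnt* was the only member that did not pass the test over the 4 time-points (FDR = 0.10), and its largest step, from E15.5 to E18.5, was 0.13 ± 0.06 on the log2 scale (FDR = 0.15). Across birth its log2 fold change was -0.13 ± 0.06 with an FDR of 0.077, and it was -0.20 with an FDR of 0.015 when only library size was used for scaling.

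*Arnt2*, a paralog that can take the place of *Arnt* in the HIF dimer, was not steady. It held 75.9, 76.2 and 83.4 CPM at E15.5, 68.0, 68.0 and 79.0 CPM at E18.5, then 21.2, 21.9 and 22.7 CPM at P5, and 14.9, 13.8 and 17.3 CPM at P8. It fell 3.07-fold from E18.5 to P5 (log2 fold change -1.62 ± 0.09, FDR = 1.5e-08) and 1.45-fold from P5 to P8 (FDR = 0.0038). Per exon length, *Arnt* and *Arnt2* were close to equal at E15.5, where *Arnt* made up 51.5% ± 1.51 of their sum. At P8 *Arnt* made up 84.9% ± 0.887.

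The 3 prolyl hydroxylase genes behaved differently from each other. *Egln3*, which is itself a well-known HIF target, peaked at E18.5. It held 23.0, 35.1 and 30.3 CPM at E15.5, 106, 59.8 and 58.7 CPM at E18.5, then 15.3, 18.1 and 17.9 CPM at P5, and 16.7, 18.7 and 14.8 CPM at P8. All E18.5 libraries were above all others, and E18.5 replicate 1 was far above the other two. It rose 2.56-fold from E15.5 to E18.5 (log2 fold change 1.36 ± 0.22, FDR = 0.0021) and fell 4.14-fold from E18.5 to P5 (log2 fold change -2.05 ± 0.22, FDR = 4e-06). Without E18.5 replicate 1 these were 1.01 (FDR = 0.0048) and -1.70 (FDR = 2.3e-06) on the log2 scale.

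*Egln1*, which encodes the main oxygen sensor of the pathway, followed the same course on a smaller scale. It held 109, 126 and 108 CPM at E15.5, 139, 132 and 136 CPM at E18.5, then 80.2, 82.1 and 87.4 CPM at P5, and 81.3, 89.7 and 78.6 CPM at P8. The E18.5 libraries were again above all others. It fell 1.54-fold from E18.5 to P5 (log2 fold change -0.62 ± 0.07, FDR = 4.5e-06). The rise before birth was 1.20-fold (log2 fold change 0.26 ± 0.07, FDR = 0.019), and it no longer passed in 4 of 22 alternative fits.

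*Egln2*, the hydroxylase gene that is not induced by hypoxia in most cells, changed little. It held 88.0, 92.1 and 88.5 CPM at E15.5, 78.2, 99.6 and 89.9 CPM at E18.5, then 76.8, 81.8 and 81.6 CPM at P5, and 68.8, 69.2 and 70.7 CPM at P8. The embryonic and P5 libraries overlapped, and the P8 libraries were the lowest of the 12. Across birth its log2 fold change was -0.07 ± 0.07 (FDR = 0.38), and from E15.5 to P8 it fell 1.22-fold (FDR = 0.0022).

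The ratio of *Egln3* to *Egln1* counts was 0.212 to 0.281 in the E15.5 libraries, 0.431 to 0.760 in those of E18.5, 0.191 to 0.221 in the P5 libraries and 0.189 to 0.209 in those of P8. The mean log2 ratio was lower by 0.86 after birth, or 1.81-fold (difference -0.86, exact two-sided permutation test, p = 0.0043, adjusted p = 0.0043 over 3 ratios). The E18.5 range lay above all others, and the E15.5 and P5 ranges overlapped. Per exon length *Egln3* made up 14.7% ± 2.12 of the summed prolyl hydroxylase transcripts at E15.5 and 28.4% ± 7.80 at E18.5, then 11% ± 0.603 at P5 and 11.6% ± 0.917 by P8. The hydroxylase sum itself was 97.8 ± 7.71 CPM per kb at E18.5 and 58.2 ± 2.42 at P5.

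*Hif1an* encodes the asparaginyl hydroxylase that blocks coactivator binding. It held 86.6, 87.3 and 85.6 CPM at E15.5, 73.5, 85.4 and 94.9 CPM at E18.5, then 100.03, 96.9 and 95.6 CPM at P5, and 78.6, 82.8 and 85.2 CPM at P8. The P5 libraries were the highest of the 12. It rose 1.23-fold from E18.5 to P5 (log2 fold change 0.29 ± 0.07, FDR = 0.0032) and was 1.20-fold lower at P8 than at P5 (log2 fold change -0.27 ± 0.07, FDR = 0.028), the second step failing in 5 of 22 alternative fits.

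*Vhl*, the substrate receptor of the ubiquitin ligase that removes hydroxylated alpha subunits, was slightly lower after birth. It held 56.5, 60.0 and 54.6 CPM at E15.5, 54.9, 57.5 and 56.8 CPM at E18.5, then 48, 50.9 and 50.6 CPM at P5, and 45.7, 46.9 and 44.0 CPM at P8. All embryonic libraries lay above all postnatal ones. No step between successive time-points passed the test (FDR = 0.92, 0.16 and 0.089), although the step across birth had an FDR of 0.025 when only library size was used for scaling, and from the embryonic to the postnatal mean it fell 1.13-fold (log2 fold change -0.17 ± 0.04, FDR = 0.0016).

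*Bnip3*, a mitophagy receptor gene and a classical HIF target, was lower after birth. It held 20.0, 33.9 and 26.3 CPM at E15.5, 39.7, 30.0 and 32.7 CPM at E18.5, then 15.8, 15.1 and 14.8 CPM at P5, and 15.7, 18 and 13.8 CPM at P8. The embryonic and postnatal libraries did not overlap, and E15.5 overlapped with E18.5. It fell 2.11-fold from E18.5 to P5 (log2 fold change -1.08 ± 0.17, FDR = 0.00012), and its log2 fold change before birth was 0.36 ± 0.17 (FDR = 0.15). Without E18.5 replicate 1 the fall was -0.94 on the log2 scale (FDR = 0.00077), which no longer counts as called. Its antisense overlap, given above, touches 504 of its 2265 exon bases.

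The related mitophagy gene *Bnip3l*, also listed as a HIF target, went the other way. It held 159, 179.7 and 157 CPM at E15.5, 185, 182 and 182 CPM at E18.5, then 265, 235 and 235 CPM at P5, and 190.2, 193 and 218 CPM at P8. It rose 1.42-fold from E18.5 to P5 (log2 fold change 0.51 ± 0.08, FDR = 8e-05). The ratio of *Bnip3* to *Bnip3l* counts was 0.126 to 0.189 in the E15.5 libraries, 0.165 to 0.214 in those of E18.5, 0.0598 to 0.0640 in the P5 libraries and 0.0632 to 0.0932 in those of P8. The mean log2 ratio differed by -1.29 between the postnatal and the embryonic libraries, or 2.45-fold (exact two-sided permutation test, p = 0.0022, adjusted p = 0.0032 over 3 ratios). *Bnip3l* is also used by maturing red cells, and erythroid genes moved across birth as given above. Their part in this ratio was not tested.

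**Figure D4:**
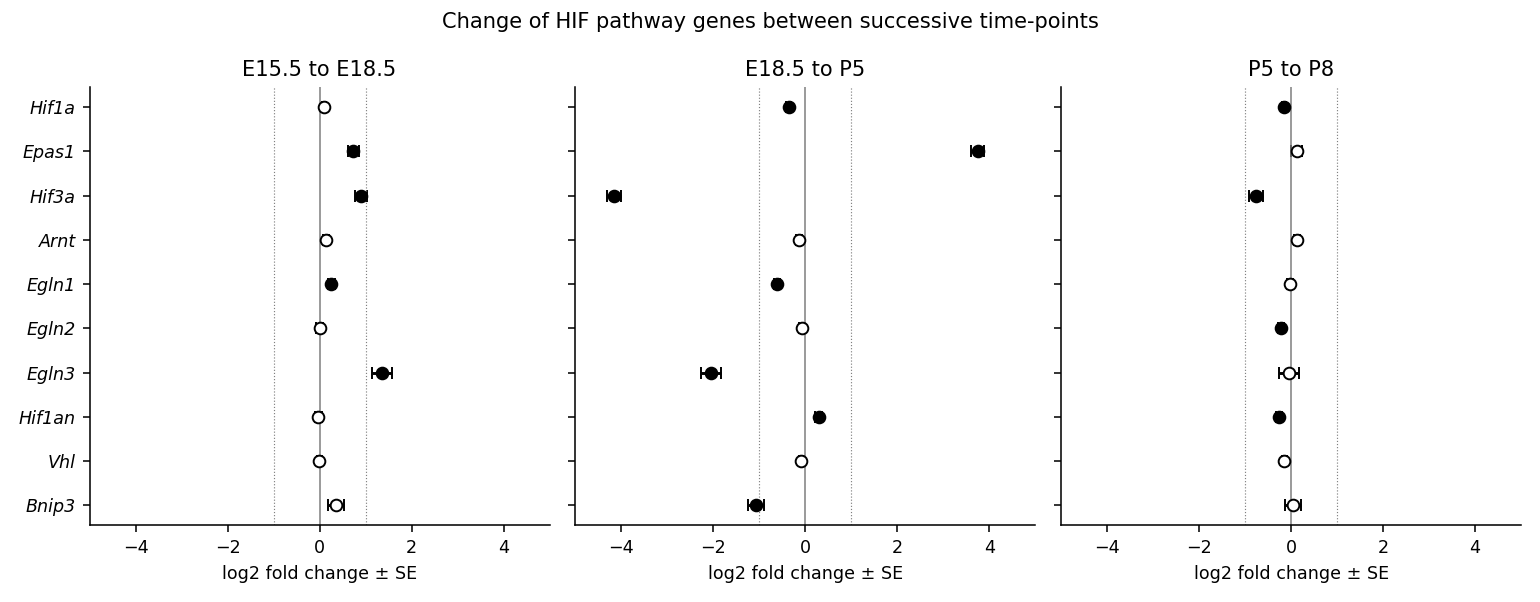
Log2 fold change (horizontal axis) of each HIF pathway gene between successive time-points, with its SE from edgeR. Filled points passed an FDR of 0.05, and dotted lines mark a change of 1 on the log2 scale. From E18.5 to P5 *Epas1* lies at 3.74 and *Hif3a* at -4.17, with *Egln3* (-2.05) and *Bnip3* (-1.08) also beyond the dotted line.

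By comparison, the counts were these. From E15.5 to E18.5, 4 of the 10 genes rose (*Epas1*, *Hif3a*, *Egln1* and *Egln3*), where 11.6% of all genes tested rose and 9.87% fell. *Egln3* was the 1 member called higher, where 1.59% of all genes were called higher and 1.46% lower. From E18.5 to P5, 2 rose (*Epas1* and *Hif1an*) and 5 fell (*Hif1a*, *Hif3a*, *Egln1*, *Egln3* and *Bnip3*), where 35.4% of all genes rose and 35.7% fell. *Epas1* was called higher (17.5% of all genes), and *Hif3a*, *Egln3* and *Bnip3* were called lower (9.34%). The median log2 fold change of the 10 genes over this step was -0.25, against -0.00237 over all genes tested.

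Between P5 and P8 the members other than *Hif3a*, whose further fall is given above, moved little. The 4 that passed the test all fell (*Hif1a*, *Hif3a*, *Egln2* and *Hif1an*), where 9.75% of all genes rose and 8.21% fell. The fall of *Egln2* no longer passed in 13 of 22 alternative fits, and limits of the others are given above. With edgeR 0 members were called, where 2.88% of all genes were called higher and 0.0875% lower. At an unadjusted p under 0.05 there were 5 members, and DESeq2 passed 4 and called 0.

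Over the full span from E15.5 to P8, 1 member rose and 7 fell, where 37.6% of all genes rose and 38.7% fell. *Epas1* was called higher (20.9% of all genes) with a 24.2-fold rise, and *Hif3a* was called lower (11.5%) with a 16.4-fold fall. Between the embryonic and the postnatal mean, 2 rose and 7 fell, where 40.1% of all genes rose and 41% fell. *Epas1* was called higher (19.4% of all genes), and *Hif3a* and *Egln3* were called lower (10.1%). In 7 of the 10 genes the 6 embryonic and 6 postnatal libraries did not overlap, as in 59.1% of all genes tested.

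The order of the levels per exon length changed as well. At E15.5 *Egln2* (32.0 ± 0.795 CPM per kb) and *Egln1* (31.7 ± 2.79) were highest and overlapped, followed by *Hif1a* (24.5 ± 0.639) and *Vhl* (19.0 ± 0.904). *Hif3a*, *Hif1an*, *Bnip3*, *Egln3* and *Arnt* followed between 13.7 and 10.8 CPM per kb, each overlapping with its neighbour, and *Epas1* was the lowest (8.43 ± 0.913). At E18.5 *Egln1* led (37.8 ± 1.10), and *Egln2*, *Egln3*, *Hif1a* and *Hif3a*, between 31.9 and 25.3 CPM per kb, overlapped in turn. At P5 *Epas1* was the highest by far (176 ± 5.43), ahead of *Egln2* (28.6 ± 1.01), and *Hif3a* was the lowest (1.33 ± 0.127). At P8 *Epas1* again led (194 ± 25.2) and *Hif3a* was again the lowest (0.791 ± 0.0462), while *Egln2* and *Egln1* overlapped.

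The genes whose course was most like that of each called member were found by Pearson's r of log2(CPM + 1) over the 12 libraries, among genes with a mean of at least 10 CPM. These values are a description, since the libraries fall into an embryonic and a postnatal cluster. For *Epas1* they were *Nceh1*, *Slco2a1*, the prostaglandin transporter gene, and *Ager*, an alveolar type 1 cell marker, each with r = 0.999. *Ager* went from a mean of 83.0 CPM at E18.5 up to 1073 CPM at P5. For *Hif3a* they were *Zfp507*, *Rpl6l* and *Nexmif* (r = 0.994 each), all of which changed much less in size, *Nexmif* from 37.5 to 12.2 CPM over that step. For *Egln3* they were *Sema6b* (0.982), *Zfp516* (0.968) and *Kcnj8* (0.966), and for *Bnip3* they were *Lyplal1* (0.968), *Egln1* (0.967) and *Alkbh5* (0.967).

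Of 18 other genes that control HIF, 2 rose and 9 fell across birth (E18.5 to P5), and 3 were called, all lower: *Arnt2*, described above, and the chaperone genes *Hsp90aa1* and *Hsp90ab1*. Among all genes tested 35.4% rose, 35.7% fell, 17.5% were called higher and 9.34% lower. The median log2 fold change of the 18 was -0.18, against -0.00237 over all genes. *Hsp90aa1*, whose product stabilizes the alpha subunits, fell from 477 ± 33.5 CPM to 209 ± 3.69 CPM (log2 fold change -1.10 ± 0.06, FDR = 2e-08). *Hsp90ab1* fell from 1950.0 ± 154 to 869.9 ± 51.9 CPM (log2 fold change -1.08 ± 0.07, FDR = 5.9e-08). Of the 4 partners of *Vhl* in its ubiquitin ligase (*Elob*, *Eloc*, *Cul2*, *Rbx1*), 3 fell. Of the coactivator genes and their competitors, 1 of 4 rose: *Cited2*, which competes with the alpha subunits for coactivators and is itself a HIF target. *Cited2* stood at 42.8, 40.6 and 36.9 CPM at E18.5 and at 60.0, 64.1 and 69.4 CPM at P5, without overlap (log2 fold change 0.77 ± 0.07, FDR = 7.5e-07).

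Of 49 known HIF targets listed beside *Bnip3*, 48 were in the count table and passed the filter (*Epo* was not in it). Before birth (E15.5 to E18.5) 17 of the 48 rose and 2 fell, where 11.6% of all genes tested rose and 9.87% fell. This count depended in part on E18.5 replicate 1. Without it, rises that no longer passed in edgeR included those of *Slc2a1* (FDR = 0.095), *Hk2* (0.17), *Slc2a3* (0.20) and *Ankrd37* (0.23). The number of all genes that rose also went down, from 1863 to 1131. It was 1369 without E15.5 replicate 1 and 1430 without E15.5 replicate 2, the libraries with heart genes. Across birth (E18.5 to P5) 13 rose and 30 fell, where 35.4% of all genes rose and 35.7% fell. Afterwards (P5 to P8) 11 rose and 2 fell, where 9.75% rose and 8.21% fell. Of these 11, 7 were genes of glucose uptake and glycolysis. P8 replicates 1 and 2 held thymocyte genes, as given above, and their part in this count was not tested. Across birth 8 were called higher, near the background of 17.5%, and 19 lower, where 9.34% of all genes were, and the median log2 fold change was -0.65, against -0.00237 over all genes tested. Counts by function follow, and differences between the functional groups were not tested.

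Glucose uptake and glycolysis genes were mostly lower after birth. Of 19, 15 fell and 3 rose across birth, where 35.7% of all genes tested fell and 35.4% rose. Of the same 19, 12 were called lower and 1 higher, against 9.34% and 17.5% of all genes. Their median log2 fold change was -1.46. *Slc2a1*, the glucose transporter gene shown above with its motif, held 65.8, 91.4 and 79.3 CPM at E15.5, 146, 95.0 and 112 CPM at E18.5, then 11.6, 14.8 and 13.3 CPM at P5, and 16.3, 19.8 and 15.8 CPM at P8. Embryonic and postnatal libraries were far apart, and it fell 8.40-fold across birth (log2 fold change -3.07 ± 0.17, FDR = 1.8e-08). *Hk2*, a hexokinase gene, fell from 59.4 to 8.06 CPM, *Slc16a3*, a lactate exporter gene, from 77.3 to 12 CPM, *Eno1* from 449 to 89.2 CPM, and *Tpi1* from 532 to 127 CPM. *Pfkfb4*, whose product sets the level of an activator of glycolysis, went the other way, from 10.4 ± 1.29 to 35.0 ± 0.820 CPM (log2 fold change 1.84 ± 0.09, FDR = 7.7e-09). *Eno1*, *Tpi1* and other glycolysis genes have pseudogene copies, so their levels in uniquely mapped reads are uncertain.

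Genes of vessel growth and tone were mostly higher after birth, with 6 of 8 rising and 1 falling from E18.5 to P5. Among all genes tested 35.4% rose and 35.7% fell over this step. The median log2 fold change of the 8 was 1.27. *Vegfa*, the main endothelial growth factor gene, held 95.9, 105 and 113 CPM at E15.5, 135, 97.9 and 105 CPM at E18.5, then 269.5, 331 and 320.0 CPM at P5, and 311, 319 and 428 CPM at P8. It rose 2.89-fold across birth without overlap (log2 fold change 1.53 ± 0.14, FDR = 9.3e-07). *Angptl4* rose from 26.6 ± 2.89 to 70.8 ± 8.92 CPM and *Angpt2*, a ligand of the endothelial receptor Tek, from 8.75 ± 0.653 to 20.2 ± 1.55 CPM. *Edn1*, the gene of the vasoconstrictor endothelin, stood at 21.8, 5.65 and 5.31 CPM at E18.5 and at 31.9, 30.0 and 28.4 CPM at P5. Its rise was 1.55 ± 0.43 on the log2 scale (FDR = 0.0063), and 2.56 (FDR = 8.7e-07) without E18.5 replicate 1. In the study's sorted cells, total *Vegfa* by RT-qPCR was highest in the epithelial population, followed by the endothelial one. Endothelial and alveolar type 1 markers rose over the same step, as given above, and their part in these values was not tested.

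The largest rise on the target list was that of *Cp*, which encodes the copper-carrying ferroxidase ceruloplasmin. It held 2.57, 3.12 and 2.07 CPM at E18.5 against 114, 115 and 114 CPM at P5 (log2 fold change 5.56 ± 0.13, FDR = 8.7e-11). Of the 4 red cell and iron genes tested, 2 rose and 1 fell over this step, where 35.4% of all genes rose and 35.7% fell. Of the 11 genes of pH control, matrix and other roles, 10 fell and 6 were called lower, with a median of -1.02. Among all genes 9.34% were called lower. The 11 include *Lox*, a collagen cross-linking enzyme gene, which fell from 674 ± 80.7 to 147 ± 13.8 CPM (log2 fold change -2.11 ± 0.09, FDR = 2.7e-09). *Lox* had risen from 412 ± 12.4 CPM at E15.5 (FDR = 0.00071). Of the 6 genes of mitochondria, mitophagy and growth arrest, 2 rose and 3 fell, which is not far from the shares of all genes, and the median was -0.30.

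**Figure D5:**
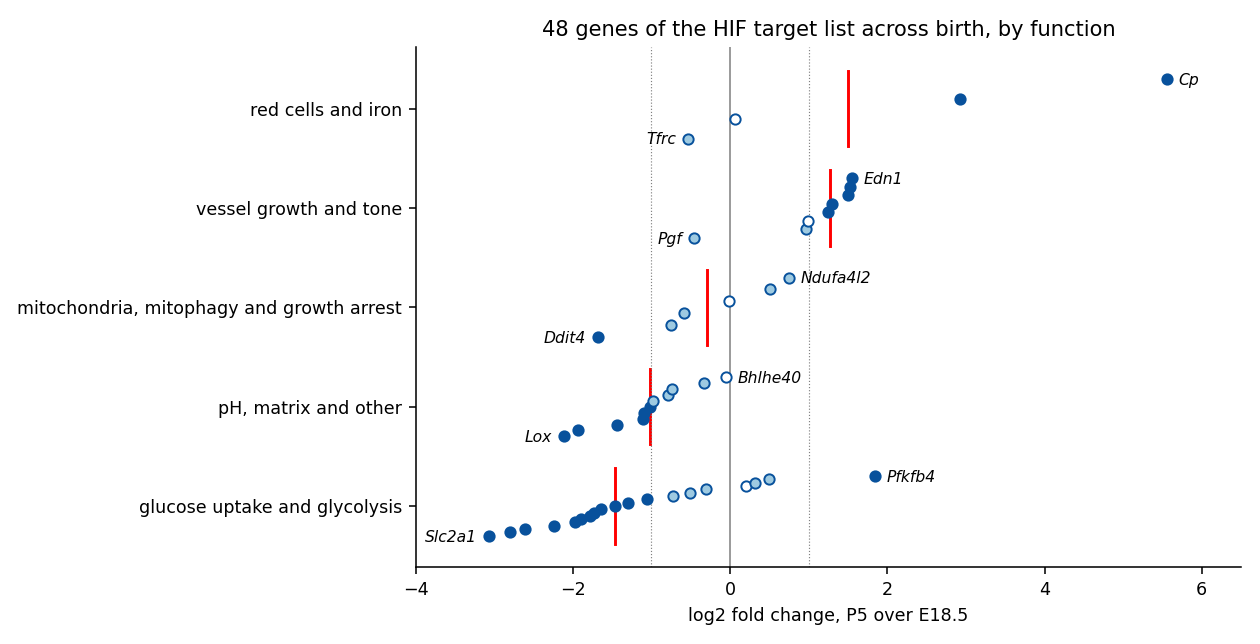
Log2 fold change at P5 over E18.5 (horizontal axis) of the 48 HIF target genes tested, grouped by function. Dark points are called, pale points passed the FDR alone and open points did not pass; red lines are group medians, dotted lines a change of 1, and the lowest and highest gene of each group is named. The glycolysis group has its median at -1.46 and the vessel group at 1.27.

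Without E18.5 replicate 1, the 3 targets *Adm*, *Bhlhe40* and *Ankrd37* changed most beside *Edn1*, and they were picked after their values were seen. *Adm* (a vasodilator gene) had a log2 fold change of 0.99 (FDR = 0.11) across birth with that library and 2.24 (FDR = 6.8e-05) without it. *Bhlhe40* had -0.05 (FDR = 0.91) with it and 0.86 (FDR = 0.001) without it. *Ankrd37* rose 1.13 on the log2 scale before birth (FDR = 0.046) with it, and had 0.62 (FDR = 0.23) without it.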

How the data were processed

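Whole lungs of C57BL/6 mice were sequenced by the authors as paired-end RNA-seq at 4 time-points, 3 libraries each. Per the labels and the study's methods, reads were mapped uniquely to mm10 with TopHat2 2.1.1 and Bowtie2 2.3.4 and counted with HTSeq 0.10.0. The deposited count table holds raw read counts of 16152 genes, and the deposited CPM table holds CPM (reads per 1000000 mapped reads of the library) for 51825 genes. All CPM values gave whole reads (100.0%, within 0.1 read), and for the 16152 genes of the count table these equalled the deposited counts. The deposited splicing table was not used here.

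The 10 members, the gene lists and the rules were chosen with earlier results of these data known. Groups came from the age label. Raw counts were tested with edgeR 4.0.16 (R 4.3.3): TMM scaling, a minimum of 1 CPM in 3 or more libraries (15994 genes), 1 quasi-likelihood fit over 12 libraries, Benjamini-Hochberg FDR. Called means FDR under 0.05 and an absolute log2 fold change above 1. SE is the log2 fold change over the square root of F. The script was tested on simulated counts. The same test on the recovered reads covered 16214 genes and called 2851 higher and 1525 lower from E18.5 to P5, against 2795 and 1494. Ratios used log2 of counts + 0.5 and exact permutation of 6 against 6 libraries, taken as independent although those of a time-point were littermates. Exon lengths came from the Gencode M21 annotation, promoters from RefSeq. Counting error is small at this depth, so the spread between libraries limits the precision.

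Besides the 10 members, genes were named by rule: up to 6 per direction of the regulator and target lists called from E18.5 to P5 with a mean of at least 10 CPM, *Arnt2*, *Bnip3l*, *Vegfa*, *Slc2a1* and *Cited2* in any case, and the 3 genes most correlated with each called member. Alternatives were DESeq2 1.42.0, other scalings, filters and thresholds, fits of single comparisons, a replicate block, and fits without libraries; the fits on recovered reads and without the heart-gene libraries were chosen after seeing the data.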

Additional observations from a re-analysis of the deposited data

How the results depend on the processing

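No member changed direction past the FDR in any alternative. Of 1090 refitted values of the 10 genes, 1038 kept their side of an FDR of 0.05, 44 lost it and 8 gained it, and 33 of the 44 belonged to the small steps from P5 to P8. With the FDR alone and no fold limit, 4 members passed before birth (E15.5 to E18.5), 7 across birth (E18.5 to P5) and 4 after it (P5 to P8). Over the whole span (E15.5 to P8) 8 passed, and from embryonic to postnatal 9. Called were 1, 4, 0, 2 and 3. Of all 15994 genes tested, 3441, 11369, 2872, 12197 and 12971 passed in the same order. From E18.5 to P5, 43 targets and 11 regulators passed, against 27 and 3 called. The counts of members and regulators over that step were near the share of all genes. Leaving out 1 library gave 1 to 2 members called before birth (2 if E18.5 replicate 3 is dropped, which adds *Hif3a*) and 3 to 4 across birth (3 without E18.5 replicate 1, which loses *Bnip3*). With E18.5 against P5 only, the *Epas1* to *Hif1a*, *Egln3* to *Egln1* and *Bnip3* to *Bnip3l* log2 ratios differed by 4.12, by -1.37 and by -1.57, each with p = 0.1 by exact permutation, the smallest that 3 against 3 allows. Same-numbered libraries of different time-points had correlations of their deviations between -0.34 and 0.30, so the numbers were not taken as pairs. With a replicate block 4 members were called from E18.5 to P5, as without it, and it changed none of the other counts of calls. The ratios had p = 0.0093 each by exact permutation within numbers, the smallest that such permutation allows. Leaving out the heart-gene libraries, or the thymus-gene ones, left 1 library at E15.5 or at P8, which was assumed to vary like the other groups.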
